A study of Mus musculus with 6 samples.

Results

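Matricellular proteins are secreted into the extracellular matrix but act mainly as modulators of how cells contact it, rather than as load-bearing fibers. The 10 genes described here encode the SPARC family members *Sparc*, *Sparcl1*, *Smoc1* and *Smoc2*, the thrombospondins *Thbs1*, *Thbs2*, *Thbs3* and *Thbs4*, tenascin C (*Tnc*) and osteopontin (*Spp1*). They were taken by gene symbol, as a list of families rather than by a threshold on their values, from 55421 genes listed in a table of retinal RNA-seq counts. The list was chosen with earlier results of these data known, so shares of its genes are not an unbiased contrast with all genes. All 10 were among the 16575 genes with enough counts to be tested. The retinas came from 2-month-old mice, 3 control animals with the floxed *Yap* allele and no Cre (Yapfl/fl; YR612, YR613 and YR615) and 3 *Yap* cKO animals (Yapfl/fl;RaxCreERT2; YR711, YR713 and YR714). Both groups received 4-hydroxytamoxifen at postnatal days 10 and 14, so the agent is shared and the Cre transgene is not. The Cre is active where *Rax* is expressed, which in the postnatal eye comprises Müller glia, the main glial cells of the retina, and the non-pigmented epithelium of the ciliary body. Each library holds the RNA of all cells harvested with a retina. In such bulk samples, fewer cells of a type and less RNA per cell cannot be told apart.

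In the nervous system these proteins are best known as products of glia and of vessels. SPARC binds collagens and, in glia, is described as counteracting its paralog SPARCL1 (hevin), which promotes the formation of excitatory synapses. Thrombospondins are glial synaptogenic factors that bind the calcium channel subunit encoded by *Cacna2d1*, and THBS1 is also an inhibitor of angiogenesis through the receptor CD36. Tenascin C is an anti-adhesive glycoprotein that rises in many injured tissues, and osteopontin is a phosphoprotein ligand of integrins and CD44 that retinal ganglion cells can make. YAP, the product of the deleted gene, is a coactivator without DNA binding of its own that reaches promoters and enhancers mainly through TEAD factors.

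Libraries held between 24261799 and 35067068 assigned fragments. Levels are given as TPM, which scales counts for exonic length and for the sum of each library, and differences as log2 fold changes of *Yap* cKO against control with their standard error. Adjusted p-values come from the quasi-likelihood test of edgeR, adjusted by Benjamini-Hochberg over all tested genes. *Yap1* itself, the check of the genotype, fell from between 9.48 and 9.83 TPM in control retinas to between 3.76 and 3.99 TPM in *Yap* cKO retinas (log2 fold change -1.36, SE 0.093, adjusted p = 0.000282).

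Among the matricellular genes, *Sparc* fell 2.14-fold, with every *Yap* cKO retina below every control, while its paralog *Sparcl1*, the most abundant transcript of the set, did not pass the test. *Sparc* was the 1 member of 10 with an adjusted p of at most 0.05. That threshold was passed by 247 of all tested genes, or 1.49%, and by 0.989% of all tested genes in the lower direction. *Sparc* also met every criterion of the study (besides the adjusted p, a change of 1.5-fold or more and a group mean of 5 TPM or more), as did 0.796% of tested genes. No member passed as higher by the quasi-likelihood test, and 1 (*Tnc*) did by the likelihood ratio test and by DESeq2. At an unadjusted p under 0.05 there were 4 members, namely *Sparc*, *Thbs1*, *Thbs2* and *Tnc*, beside 21.4% of all tested genes, and the same 4 were called by edgeR's likelihood ratio test, which calls 6.18% of tested genes. By sign, 7 members, among them all 4 thrombospondins, were lower and 3 were higher, beside 49.7% of all tested genes lower. The median log2 fold change of the members was -0.34 against 0.0017 over all tested genes.

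**Figure D1:**
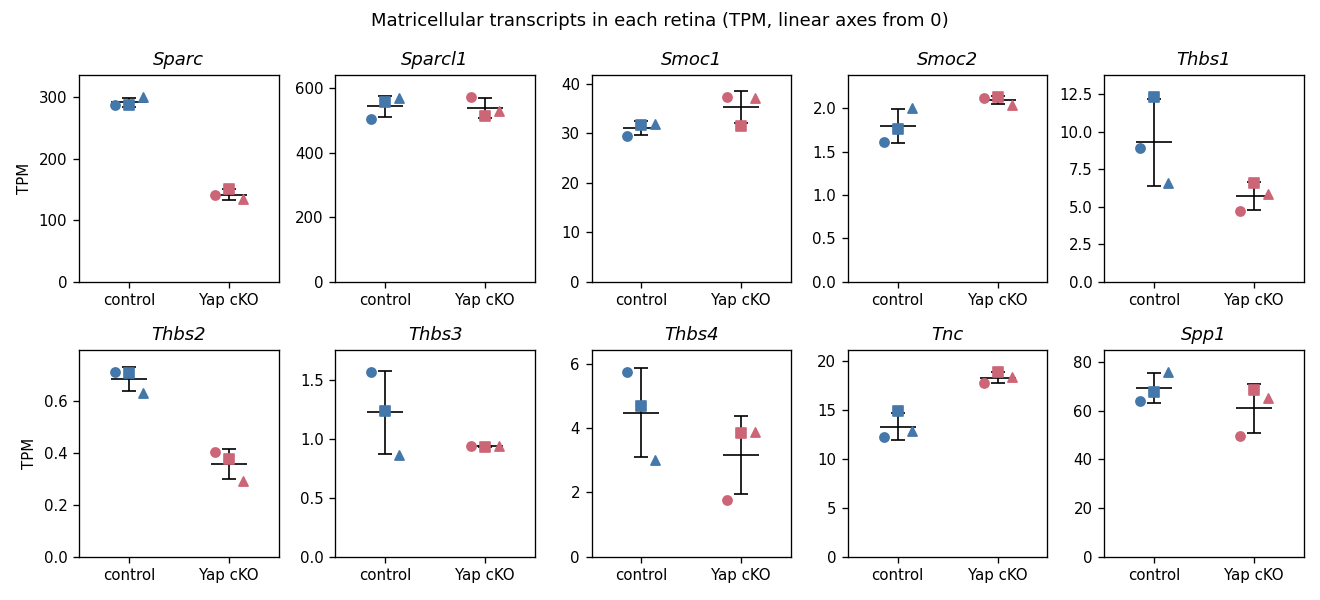
TPM (vertical axes, linear, each from 0) of the 10 matricellular genes in the 3 control retinas (blue; circle YR612, square YR613, triangle YR615) and the 3 Yap cKO retinas (red; circle YR711, square YR713, triangle YR714), with the mean and SD in black. Sparc lies between 287 and 301 TPM in control and between 134 and 151 TPM in Yap cKO retinas, and the Sparcl1 values of the groups overlap.

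*Sparc* (ENSMUSG00000018593, exonic length 3788 bases) lies on the minus strand at chr11:55394500-55423183 of GRCm38. The control retinas YR612, YR613 and YR615 held 288, 287 and 301 TPM, and the *Yap* cKO retinas YR711, YR713 and YR714 held 140.5, 151 and 134 TPM. Values per retina follow this order from here on. The groups were far apart, and the spread within each was small, with a coefficient of variation of 2.61% in control and 5.96% in *Yap* cKO retinas. *Sparc* had a log2 fold change of -1.10 (SE 0.075, adjusted p = 0.000282, 95% interval -1.27 to -0.93), a 2.14-fold lower level. It rests on 7201 to 8753 counts per control retina and 3399 to 4969 per *Yap* cKO retina. Leaving out single retinas moved it only between -1.14 and -1.08, with adjusted p-values from 0.000255 to 0.00543, and after each retina was corrected for exonic length it was -1.07. In control retinas 97.3% of the tested genes had a lower TPM than *Sparc*.

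The sequence upstream of the *Sparc* start is shown because *Sparc* is the member that changed, and that of *Thbs4* because it was the 1 member promoter of 8 with the TEAD motif. Each line gives the 250 bases before the RefSeq start on GRCm38.p6, *Sparc* from chr11:55420081-55420330 and *Thbs4* from chr13:92794819-92795068, both on the minus strand, with capitals marking the motif.
Sparc: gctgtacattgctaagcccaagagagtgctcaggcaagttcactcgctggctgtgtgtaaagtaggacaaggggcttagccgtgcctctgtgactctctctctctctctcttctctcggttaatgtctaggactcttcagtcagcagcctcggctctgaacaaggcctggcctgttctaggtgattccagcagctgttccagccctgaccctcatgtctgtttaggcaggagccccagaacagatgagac
Thbs4: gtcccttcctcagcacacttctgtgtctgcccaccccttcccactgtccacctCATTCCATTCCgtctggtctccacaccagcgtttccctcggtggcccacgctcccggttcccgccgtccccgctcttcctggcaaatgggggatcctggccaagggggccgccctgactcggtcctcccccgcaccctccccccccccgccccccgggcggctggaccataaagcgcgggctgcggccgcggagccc
The letters GGAATG, or CATTCC for the other strand, were searched in windows from 250 bases before to 50 bases after each start, which were at hand for 8 starts of 6 members (*Sparc*, *Thbs2*, *Thbs3* and *Thbs4*, and *Tnc* and *Spp1* with more than one start each). In *Thbs4* the motif occurred as a pair that shares 1 base, from 197 to 187 bases before the start. Of all 32851 promoters in the table, 4817 (14.7%) held it, and in the *Sparc* window these letters were absent. The annotation behind the counts extends *Sparc* further upstream than the RefSeq start used here. YAP and TEAD binding was not measured in these libraries.

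*Sparcl1* (ENSMUSG00000029309, chr5:104079111-104113733, minus strand) had 506, 556 and 569 TPM in control and 573, 514 and 530.0 TPM in *Yap* cKO retinas. The lowest value was a control and the highest a *Yap* cKO retina, so the groups overlapped. The log2 fold change of *Sparcl1* was -0.07 (SE 0.074, adjusted p = 0.602), and its 95% interval of -0.24 to 0.10 lies within a 1.5-fold change both ways.

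The balance of the paralogs could be compared within each retina, where library size and scaling cancel. *Sparcl1* exceeded *Sparc* in all 6 retinas, 1.86-fold in control and 3.80-fold in *Yap* cKO by the group means. The mean log2 ratio of *Sparc* to *Sparcl1* TPM was -0.90 ± 0.075 (SD, n = 3) in control, against -1.93 ± 0.138 (SD, n = 3) in *Yap* cKO retinas. The difference of -1.03, a 2.04-fold lower ratio, was larger than the spread within groups, with no overlap. An exact two-sided permutation test gave p = 0.1, the smallest p that 3 retinas against 3 allow. When single retinas were left out, the difference stayed between -1.11 and -0.98.

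SMOC1 and SMOC2 are calcium-binding relatives of SPARC that attach to basement membranes, and SMOC1 is known as an antagonist of BMP signaling. *Smoc1* (ENSMUSG00000021136, chr12:81026808-81186414, plus strand) had 29.4, 31.6 and 31.9 TPM in control and 37.3, 31.5 and 37.0 TPM in *Yap* cKO retinas. YR713 lay among the controls while YR711 and YR714 lay above them, and the log2 fold change of *Smoc1* was 0.13 (SE 0.093, adjusted p = 0.432). *Smoc2* (ENSMUSG00000023886, chr17:14279506-14404790, plus strand) was much scarcer, with 1.61, 1.76 and 2.0 TPM in control and 2.12, 2.13 and 2.04 TPM in *Yap* cKO retinas. Its groups did not overlap but were close, and the log2 fold change of *Smoc2* was 0.17 (SE 0.14, adjusted p = 0.503). The 95% intervals of both genes lay within a 1.5-fold change both ways, -0.08 to 0.34 for *Smoc1* and -0.15 to 0.48 for *Smoc2*.

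All 4 thrombospondins had negative log2 fold changes, between -0.99 and -0.44, but none passed the test. The spread between control retinas was wide for *Thbs1*, *Thbs3* and *Thbs4*, with coefficients of variation from 28.9% to 30.9%, and narrower for *Thbs2* at 6.72%. THBS1 and THBS2 form trimers and share a domain that binds CD36, whereas THBS3 and THBS4 form pentamers without it. Their summed level was 15.7 ± 4.08 TPM (SD, n = 3) in control, against 10.2 ± 2.06 TPM (SD, n = 3) in the *Yap* cKO group, with overlapping values from 11.1 to 19.0 TPM in control and from 7.82 to 11.7 TPM in *Yap* cKO. *Thbs1* made up 59.0% of this sum in control and 56.6% in *Yap* cKO retinas.

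*Thbs1* (ENSMUSG00000040152, chr2:118111876-118127133, plus strand) had 8.91, 12.3 and 6.60 TPM in control and 4.72, 6.55 and 5.86 TPM in *Yap* cKO retinas. The groups were separated by the narrow gap between control YR615 and *Yap* cKO YR713. The log2 fold change of *Thbs1* was -0.75 (SE 0.21, adjusted p = 0.109, 95% interval -1.22 to -0.27), and it ran from -0.95 to -0.52 with each retina left out in turn. *Thbs2* (ENSMUSG00000023885, chr17:14665500-14694235, minus strand) had 0.714, 0.708 and 0.632 TPM in control and 0.402, 0.377 and 0.292 TPM in *Yap* cKO retinas. Although the groups were well separated, these levels rest on 33 to 34 counts per control retina and 14 to 23 per *Yap* cKO retina, and the log2 fold change of *Thbs2*, -0.99 (SE 0.22, 95% interval -1.49 to -0.48), had an adjusted p of 0.0673. After the correction for exonic length it was -1.06 and passed (adjusted p = 0.0400), and by the likelihood ratio test *Thbs2* and *Thbs1* passed with adjusted p-values of 0.00680 and 0.0242.

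*Thbs3* (ENSMUSG00000028047, chr3:89215180-89226837, plus strand) had 1.57, 1.24 and 0.863 TPM in control and 0.941, 0.929 and 0.941 TPM in *Yap* cKO retinas. Control YR615 lay below all *Yap* cKO retinas, and the log2 fold change of *Thbs3* was -0.44 (SE 0.25, adjusted p = 0.335). It was -0.19 without control YR612 and -0.65 without control YR615. *Thbs4* (ENSMUSG00000021702, chr13:92751590-92794818, minus strand) had 5.76, 4.70 and 3.01 TPM in control and 1.76, 3.84 and 3.87 TPM in *Yap* cKO retinas. Here too YR615 was the lowest control, below YR713 and YR714, and YR711 alone lay below every control. The log2 fold change of *Thbs4* was -0.54 (SE 0.32, adjusted p = 0.344), and it was -0.27 without *Yap* cKO YR711, -0.30 without control YR612 and -0.78 without control YR615. Their 95% intervals, -1.001 to 0.13 for *Thbs3* and -1.26 to 0.18 for *Thbs4*, include both no change and a change of over 1.5-fold, so a difference was not detectable at this depth and spread.

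*Tnc* (ENSMUSG00000028364, chr4:63959785-64047015, minus strand) was higher by sign and did not pass the test. Its levels were 12.2, 14.8 and 12.8 TPM in control and 17.7, 18.9 and 18.3 TPM in *Yap* cKO retinas, so every *Yap* cKO retina lay above every control. The log2 fold change of *Tnc* was 0.41 (SE 0.086, 95% interval 0.22 to 0.60), 1.33-fold, with an adjusted p of 0.0539. *Tnc* passed without control YR613 (adjusted p = 0.0176), without *Yap* cKO YR714 (0.0497) and by the likelihood ratio test (0.00668). It did not pass with any other retina left out, where the adjusted p of *Tnc* lay between 0.0833 (YR711 left out) and 0.258 (YR713 left out), with 0.235 for YR612 and 0.251 for YR615. Its exonic length of 7772 bases is the longest of the members, and the length-corrected log2 fold change was 0.32. Across the tested genes the log2 fold change rose with exonic length (Spearman's rho 0.391 across genes, which are not independent replicates). For the relative expression of single retinas this rho was -0.41, 0.17 and -0.41 in control and 0.40, 0.39 and -0.15 in *Yap* cKO. Control YR613 and *Yap* cKO YR714, without which *Tnc* passed, thus had the opposite sign to the rest of their groups. The part of exonic length in those passes was not tested.

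*Spp1* (ENSMUSG00000029304, chr5:104435118-104441050, plus strand) had 64.0, 67.6 and 76.0 TPM in control and 49.6, 68.4 and 65.0 TPM in *Yap* cKO retinas. YR711 was the lowest and YR713 and YR714 lay among the controls in TPM. The log2 fold change of *Spp1* was -0.24 (SE 0.13, adjusted p = 0.315, 95% interval -0.53 to 0.06), within a 1.5-fold change both ways. Without *Yap* cKO YR711 it was -0.11. Of its 1648 exonic bases, 309 (18.75%) overlap *Gm42793* on the same strand, where fragments were not counted, so its TPM leaves those fragments out in every retina.

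In TPM the groups did not overlap for 5 members (*Sparc*, *Smoc2*, *Thbs1*, *Thbs2* and *Tnc*), and for 24.3% of all tested genes. On the log2 CPM scale *Spp1* was also separated, which made 6, beside 24.6% of all tested genes.

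**Figure D2:**
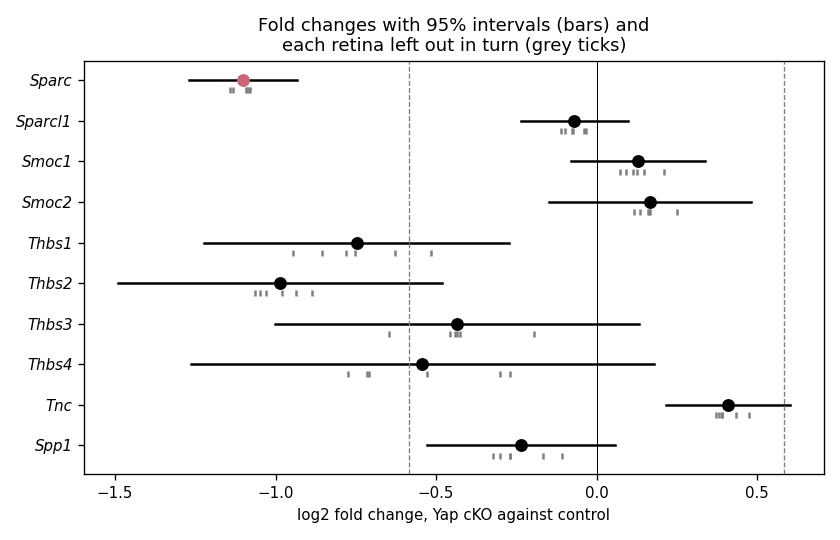
Log2 fold change of Yap cKO against control (horizontal axis) for each matricellular gene, with its 95% interval (bar) and the values with each retina left out in turn (grey ticks). Dashed lines mark a 1.5-fold change, and red marks an adjusted p of at most 0.05. The interval of Sparc, -1.27 to -0.93, lies wholly beyond the dashed line, and those of Sparcl1, Smoc1, Smoc2 and Spp1 lie wholly between the lines.

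The order of the levels was the same in both groups, *Sparcl1*, *Sparc*, *Spp1*, *Smoc1*, *Tnc*, *Thbs1*, *Thbs4*, *Smoc2*, *Thbs3* and *Thbs2* from the highest TPM to the lowest. Neighbors in this order overlapped between retinas only for *Tnc* and *Thbs1* in control and for *Thbs4* and *Smoc2* in *Yap* cKO retinas. The sum over the 10 genes was 966 ± 43.6 TPM (SD, n = 3) in control, against 808 ± 17.6 TPM (SD, n = 3) in the *Yap* cKO group. Without *Sparc* it was 675 ± 38.9 and 666 ± 20.4 TPM (SD, n = 3), a difference smaller than the spread. The share of *Sparc* in the sum was 30.2 ± 1.05% (SD, n = 3) in control, against 17.6 ± 1.17% (SD, n = 3) in *Yap* cKO retinas, and that of *Sparcl1* was 56.2% and 66.7%.

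Other secreted matricellular genes were examined as a list of 24, of which 16 were tested and 3 fell. *Ccn2*, which encodes connective tissue growth factor and is a widely used YAP target, had 55.9, 38.7 and 72.4 TPM in control and 16.6, 16.1 and 18.8 TPM in *Yap* cKO retinas (log2 fold change -1.76, SE 0.21, adjusted p = 0.00479). *Lgals3*, encoding galectin 3, fell from between 4.01 and 6.28 TPM to between 1.01 and 1.58 TPM (log2 fold change -1.94, SE 0.27, adjusted p = 0.00999). *Fstl1*, a secreted relative of SPARC with a follistatin-like domain, fell from between 40.3 and 44.4 TPM to between 29.8 and 31.2 TPM (log2 fold change -0.52, SE 0.072, adjusted p = 0.00999). The most abundant genes of the list were not among those called. *Spock2*, which encodes the SPARC-related proteoglycan testican 2, had 392 ± 21.7 and 464 ± 27.8 TPM (SD, n = 3; adjusted p = 0.189), and *Mfge8*, encoding a bridge between dying cells and phagocyte integrins, had 329 ± 23.4 and 324 ± 29.7 TPM (SD, n = 3; adjusted p = 0.683). *Spock3* and *Lgals1* had adjusted p-values of 0.261 and 0.295. The median log2 fold change of the 16 was 0.03. The 8 genes not tested for low counts were *Tnn*, *Ccn3*, *Ccn5*, *Ccn6*, *Ibsp*, *Dmp1*, *Mepe* and *Dspp*, and *Ibsp*, *Mepe* and *Dspp* had no counts in any retina.

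Of 29 receptors and binding partners 28 were tested and 1 fell, *Vcam1*, which encodes a SPARC-binding adhesion molecule. It had 7.81, 9.26 and 9.39 TPM in control and 6.55, 5.25 and 4.82 TPM in *Yap* cKO retinas (log2 fold change -0.73, SE 0.12, adjusted p = 0.0265). The abundant members were *Calr*, encoding calreticulin, which serves thrombospondins as a coreceptor, the heparan sulfate carrier *Sdc4*, the thrombospondin receptor *Cd47* and the integrin subunit *Itgb1*. Their adjusted p-values were 0.227, 0.0713, 0.182 and 0.346, and the thrombospondin receptor *Cacna2d1* had one of 0.152. The median log2 fold change of this list was -0.06.

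Collagens and genes that fold and crosslink them, the partners of SPARC in matrix assembly, numbered 14, with 13 tested and 2 lower. *Col1a2* fell from between 3.09 and 4.37 TPM to between 0.577 and 1.06 TPM (log2 fold change -2.16, SE 0.22, adjusted p = 0.00236), and *Col5a1* from between 1.21 and 1.35 TPM to between 0.219 and 0.496 TPM (log2 fold change -1.84, SE 0.26, adjusted p = 0.0104). The most abundant genes of the list were *P4ha1* and *Plod1*, which encode collagen hydroxylases, the collagen chaperone gene *Serpinh1* and the vascular basement membrane collagen *Col4a2*, with adjusted p-values of 0.258, 0.618, 0.160 and 0.106. The median log2 fold change was -0.0042. Of 10 other synapse regulators that glia secrete or use, all tested, *Gpc4* fell, from 7.89, 8.31 and 9.57 TPM to 4.84, 4.12 and 2.98 TPM (log2 fold change -1.17, SE 0.18, adjusted p = 0.0169). *Gpc4* encodes glypican 4, an astrocyte-secreted protein that recruits glutamate receptors. *Nptx1*, *Ptn*, *Nptx2* and *Nptxr*, the most abundant of this list, had adjusted p-values of 0.10, 0.825, 0.846 and 0.136, and the median of the list was 0.14. In these 4 lists the quasi-likelihood test called 0 genes as higher. At an unadjusted p under 0.05, there were 4 higher and 4 lower genes among the other matricellular genes, 8 and 4 among the receptors, 2 and 4 among the collagens and 5 and 1 among the synapse regulators. Of all tested genes, 12% were higher and 9.42% lower at that threshold. The likelihood ratio test called 2, 0, 0 and 1 genes of the lists as higher and 4, 3, 2 and 1 as lower, beside 3.36% and 2.82% of all tested genes. DESeq2 called 2, 0, 0 and 2 as higher and 4, 3, 2 and 1 as lower, beside 1.69% and 1.22% of 30127 genes. That base takes in genes with low counts that the edgeR tests left out, so its shares are not on the same footing.

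**Figure D3:**
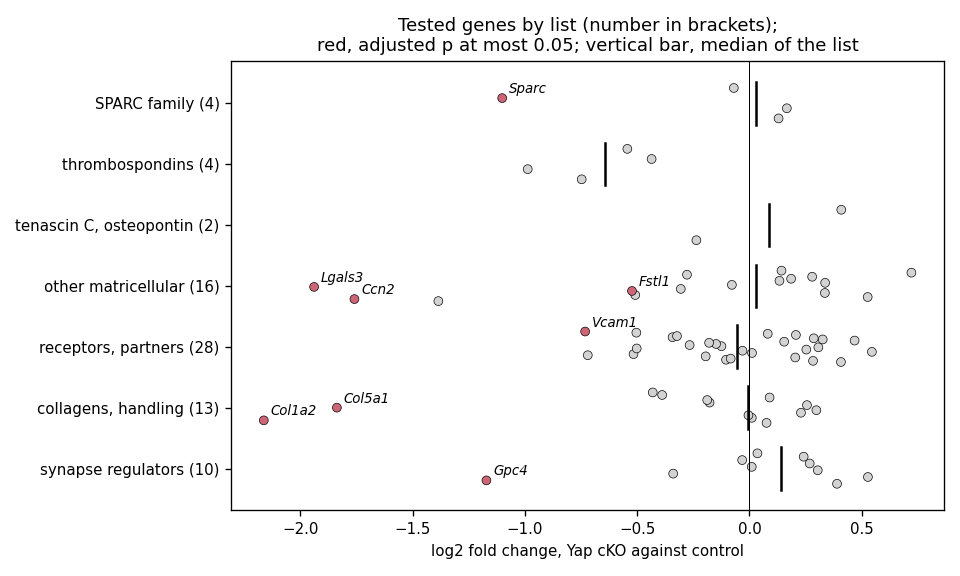
Log2 fold change of Yap cKO against control (horizontal axis) for each tested gene of the matricellular families and of the 4 related lists (rows, number tested in brackets), with a vertical bar at the median of each row and red points for adjusted p of at most 0.05. The red points all lie left of 0, from Col1a2 at -2.16 to Fstl1 at -0.52, and the list medians apart from the thrombospondins (-0.65) lie close to 0.

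Markers of the cells that could supply these transcripts were summed in each retina. Whether other cells harvested with a retina also express these markers, or those of the surrounding tissues below, was not tested. A sum thus need not follow the named cell type alone. Müller glia markers summed to between 7365 and 7580 TPM in control and between 6473 and 6933 TPM in *Yap* cKO retinas, 86.7% to 92.9% of the control mean. Of 12 markers 1 passed (*Prdx6*, lower), 2 were lower by the likelihood ratio test and by DESeq2, and 5 were lower and 1 higher at an unadjusted p under 0.05. The genes *Glul*, *Dkk3*, *Apoe* and *Rlbp1* made up 87.8% of the control sum, and the other 8 markers summed to 885 to 966 and 853 to 927 TPM, which overlap. *Sparc* stood at 48.1%, 51.6% and 45.9% of its control mean in YR711, YR713 and YR714. The part of Müller glia in the lower *Sparc* was not tested. Endothelial markers summed to 253 to 261 TPM in control and 220.4 to 284 TPM in *Yap* cKO retinas. The largest control means of that list were *Kdr* at 98.2 and *Cldn5* at 50.9 TPM, and *Kdr* alone ran at 141, 94.8 and 78.2 TPM in *Yap* cKO retinas. By sign *Cldn5* was lower (log2 fold change -0.52, adjusted p = 0.181) and *Cdh5* higher (0.35, adjusted p = 0.203). The mural cell sum was 95.2% *Vtn*, and the other 9 markers summed to 106 to 112 and 94.5 to 123 TPM. These ranges overlapped, and of 12 endothelial and 10 mural markers 0 passed edgeR's quasi-likelihood test, the likelihood ratio test or DESeq2, with 2 of each list at an unadjusted p under 0.05. Microglia, astrocyte and ganglion cell marker sums also overlapped, and 0 markers passed any of these tests, with 3 microglia, 0 astrocyte and 1 ganglion cell marker at an unadjusted p under 0.05.

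For tissues around the neural retina, some marker sums were lower in *Yap* cKO libraries and others overlapped. Of 8 ciliary non-pigmented epithelium genes, 7 were tested, *Optc* and *Ltbp2* fell and *Slc4a4* rose. *Optc* fell from between 45.6 and 50.2 TPM to between 2.44 and 8.39 TPM (log2 fold change -3.41, SE 0.36, adjusted p = 0.00243). *Ltbp2* fell from between 6.33 and 7.19 TPM to between 0.125 and 0.814 TPM (log2 fold change -4.08, SE 0.40, adjusted p = 0.00223). *Slc4a4* rose from between 3.66 and 4.40 TPM to between 5.53 and 7.08 TPM (log2 fold change 0.57, SE 0.12, adjusted p = 0.0498). The likelihood ratio test called 4 genes of this list as lower and 1 as higher, and DESeq2 3 and 1. At an unadjusted p under 0.05 there were 4 lower and 2 higher. All 8 summed to 312 to 329 TPM in control and 291 to 365 TPM in *Yap* cKO retinas, which overlap. *Aqp1*, higher by sign (log2 fold change 0.29, SE 0.089, adjusted p = 0.126), made up 71.3% of that control sum. The other 7 genes, a sum taken after seeing the data, summed to 85.3 to 101 TPM in control and 28.7 to 49.0 TPM in *Yap* cKO retinas. Those 7 stood at 31.1%, 53.2% and 32.9% of the control mean in YR711, YR713 and YR714. Melanin pigment genes summed to 75.0 to 81.9 TPM in control and 17.9 to 50.6 TPM in *Yap* cKO retinas (1 of 7 passed, *Pmel*, lower), or 23.1%, 65.0% and 37.3% of the control mean. All 7 were lower by sign. The likelihood ratio test called 4 of them as lower and DESeq2 2, with 5 lower at an unadjusted p under 0.05 and 0 higher in each case. Connective tissue fibroblast genes summed to 28.3 to 33.6 and 4.11 to 11.8 TPM, or 15.1%, 39.2% and 13.7%, and *Col1a2* and *Ogn* passed of 6 tested from a list of 10. By control mean, *Mfap4* (13.7 TPM), *Ogn* (10.6) and *Col1a2* (3.52) dominated that sum. *Mfap4* had a log2 fold change of -2.25 (adjusted p = 0.0917). For *Col1a1* and *Col3a1*, with control means of 0.268 and 0.487 TPM, it was 0.08 and -0.0042 (adjusted p = 0.910 and 0.996). By sign, 5 of the 6 tested genes were lower and 1 higher. The likelihood ratio test called 3 fibroblast genes as lower and DESeq2 2, with 3 lower at an unadjusted p under 0.05 and 0 higher in each case. Lens genes, of which 2 of 6 could be tested and *Lim2* was at 0 in every retina, summed to 4.05 to 6.40 and 2.07 to 2.79 TPM. Of the lens genes, 2 were lower at an unadjusted p under 0.05, and 0 passed any of these tests. Retinal pigment epithelium markers stood at 29.4%, 54.0% and 103% of the control mean, and 0 of 6 passed any of these tests, with 1 at an unadjusted p under 0.05. *Sparc* and the non-pigmented epithelium (with or without *Aqp1*), melanin and fibroblast sums were all highest in YR713 among the *Yap* cKO retinas. So were the full mural, microglia and astrocyte sums, which overlapped between groups. The Müller glia, endothelial and lens sums were highest in YR711, and the pigment epithelium and ganglion cell sums in YR714. YR711 lay above YR714 for *Sparc* and the fibroblast sum, but below it for the melanin sum and the non-pigmented epithelium sum without *Aqp1*. The part of these tissues in the lower *Sparc*, *Ccn2*, *Lgals3*, *Col1a2* and *Col5a1* was not tested.

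**Figure D4:**
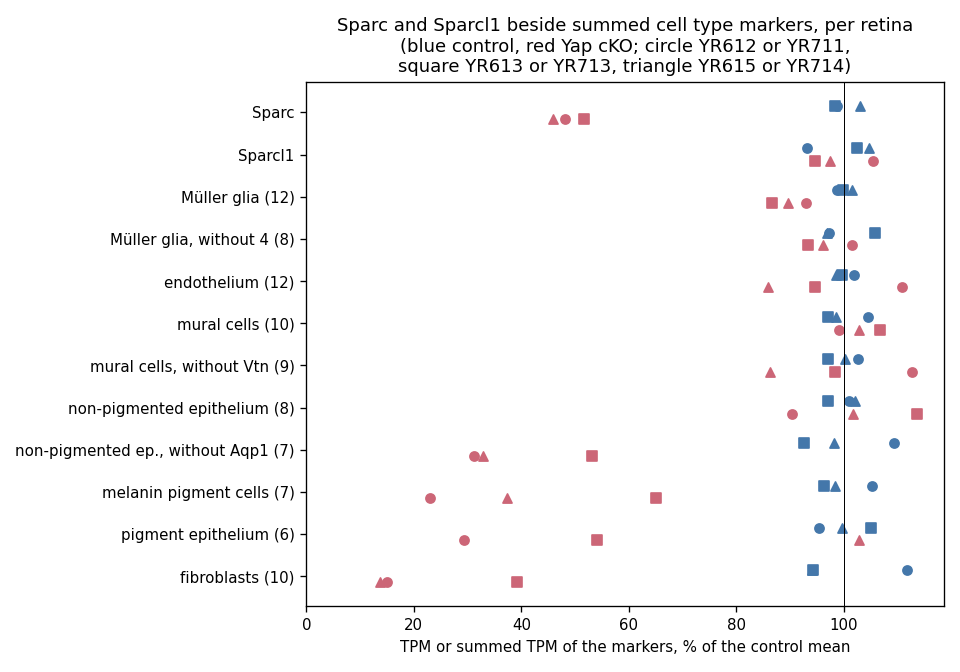
TPM of Sparc and Sparcl1 and summed TPM of cell type markers (rows, number of markers in brackets) in each retina, as a percentage of the control mean (horizontal axis; blue control, red Yap cKO). Added rows leave out the most abundant markers, which for Müller glia are Glul, Dkk3, Apoe and Rlbp1. In the Yap cKO retinas Sparc lies between 45.9% and 51.6%, and the fibroblast sum between 13.7% and 39.2%. The non-pigmented epithelium sum of these retinas lies between 31.1% and 53.2% without Aqp1 and between 90.4% and 114% with it. Their pigment epithelium sum lies between 29.4% and 103%.

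The genes whose profile over the 6 retinas lay closest to that of *Sparc* were sought among 12215 tested genes with a mean TPM of at least 5 in a group. Likeness was the root mean square difference of log2 CPM relative to the control mean. The closest was *Tph2*, encoding the neuronal tryptophan hydroxylase, at 0.060 on the log2 scale, with 8.74, 9.53 and 10.3 TPM in control and 4.68, 4.67 and 4.37 TPM in *Yap* cKO retinas. It was followed by *Sostdc1*, a secreted BMP and Wnt antagonist, at 0.098, the calcium-dependent phospholipid-binding protein gene *Anxa1* at 0.11, *Cmbl* at 0.13 and *Folh1* at 0.15. Their log2 fold changes were -1.11 for *Tph2*, -1.03 for *Sostdc1*, -1.18 for *Anxa1*, -1.21 for *Cmbl* and -1.20 for *Folh1*. With Pearson correlation as the measure, 1 of the 5 closest genes, *Tph2*, was shared. Genes with a similar fold change are close by construction of this measure, which carries no test.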

How the data were processed

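RNA-seq of 3 control and 3 *Yap* cKO retinas, which the methods describe as independent biological replicates, was analysed. Per the labels and the file header, the authors aligned reads to GRCm38 with STAR 2.7.3a and counted exonic fragments per gene with featureCounts 1.6.2 at strand setting 2 on Ensembl release 98. The deposited values are raw counts, with no normalization. Fragments that overlap several genes are not counted by that program's default. Of 55421 genes 55154 received a symbol, and all 10 members matched.

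Counts were filtered with filterByExpr (16575 genes kept of 30129 with a count), normalized by TMM and tested with the quasi-likelihood test of edgeR 4.0.16 in R 4.3.3, without covariates, and adjusted by Benjamini-Hochberg over all tested genes. Total counts were 24261799 to 35067068 per retina and the common dispersion was 0.0126. TPM were computed from counts and exonic lengths. Standard errors and 95% intervals are approximate and follow from the F statistic of each gene. Alternatives were median ratio and upper quartile factors, no filter, the likelihood ratio test, DESeq2 1.42.0, voom of limma 3.58.1, a loess correction (span 0.3) for exonic length in each retina, other criteria, and each retina left out. Marker sums without their most abundant genes were added after seeing the data. The quasi-likelihood test and the length correction were tried on simulated counts with the same dispersion, 0.0126, for every gene. The other steps were not simulated.

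The members and gene lists were chosen with earlier results of these data known. Genes were named by rule: every member, every called gene of the other lists with up to 4 of their most abundant genes, and the 5 genes closest to *Sparc*. *Cacna2d1*, *Yap1*, *Col1a1*, *Col3a1* and the called or most abundant marker genes were named in addition. Promoter sequences are from RefSeq (GRCm38.p6), and *Sparcl1*, *Smoc1*, *Smoc2* and *Thbs1* had no entry.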

Additional observations from a re-analysis of the deposited data

How the results depend on the processing

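*Sparc* passed an adjusted p of 0.05 in all 13 alternative fits, with log2 fold changes from -1.15 to -1.07 and adjusted p-values of at most 0.00543. Of 130 values of single members under these fits, 118 kept their direction and side of the threshold, 11 came to pass it and 1 changed sign, *Sparcl1* with the length correction (0.0029). The count of members past the threshold was 4 without the filter on low counts and 4 by the likelihood ratio test (*Sparc*, *Thbs1*, *Thbs2* and *Tnc*), 3 by DESeq2 (*Sparc*, *Thbs1* and *Tnc*) and 2 with the length correction (*Sparc* and *Thbs2*). These fits call more genes in all, 6.19% of 30129, 6.18% of 16575, 2.91% of 30127 and 2.77% of 16575 genes. The shares without the filter and by DESeq2 are over a wider base that takes in genes with low counts. Between 1 and 2 members passed with each retina left out, *Tnc* being the second without control YR613 or *Yap* cKO YR714, where 8.84% and 5.89% of all genes were called. With the other retinas left out this share was 0.291% (control YR615), 0.331% (control YR612), 0.552% (*Yap* cKO YR713) and 0.923% (*Yap* cKO YR711), against 1.49% with all 6. The count meeting all criteria was 2 (*Sparc* and *Thbs1*) without the filter, by the likelihood ratio test and by DESeq2, and 1 with each retina left out. Upper quartile factors moved the median of all genes to -0.044. Low counts limit *Thbs2* and *Thbs3*, which had at most 50 per retina. No paired analysis was made, because the sample labels used here name no litter or other pairing. The codes of the control retinas (YR612, YR613 and YR615) and of the *Yap* cKO retinas (YR711, YR713 and YR714) form separate series. Whatever these series stand for cannot be told apart from genotype. No group had enough retinas to test for an outlying sample.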
